A study of Mus musculus with 24 samples.

Results

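Chemokine genes that activated CD8 T cells can transcribe were followed across 4 culture conditions: Ccl1, Ccl3, Ccl4, Ccl5, Ccl9, Xcl1 and Cxcl10. They were listed by name, with earlier results of these data known, and are 7 of the 55401 genes in the deposited count table. All 7 were among the 14749 genes that passed the filter on low counts. Gene symbols were matched to the Ensembl identifiers of the table: ENSMUSG00000020702 for Ccl1, ENSMUSG00000000982 for Ccl3, ENSMUSG00000018930 for Ccl4, ENSMUSG00000035042 for Ccl5, ENSMUSG00000019122 for Ccl9, ENSMUSG00000026573 for Xcl1 and ENSMUSG00000034855 for Cxcl10.

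The cells were CD8 T cells of C57BL/6J mice, taken from spleen and lymph nodes with magnetic beads. All 4 groups were activated on plates for 3 days in medium with anti-CD28 at 0.5 µg/mL, interleukin-2 at 100 U/mL, beta-mercaptoethanol at 50 µmol/L and L-glutamine. From day 2 to day 3 the groups received sodium chloride (NaCl), sodium pyruvate, sodium lactate, or sodium lactate together with Oxyrase. The sodium salt was at 20 mM in each of the 4 groups. Oxyrase is an oxygen-removing enzyme preparation of bacterial origin whose dose the labels do not give. Oxyrase was never given alone, so the comparison that isolates it is lactate+Oxyrase against lactate. Each group had 3 RNA-seq libraries and 3 ATAC-seq libraries, in which a transposase marks open chromatin. The labels do not say whether replicates came from separate animals or cultures, so the p-values measure only the spread between these libraries.

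Chemokines are small secreted proteins that guide leukocytes through G protein-coupled receptors. Ccl3, Ccl4 and Ccl5 are inflammatory chemokines that are stored or released by cytotoxic T cells, where they draw in further effector cells and antigen-presenting cells. Xcl1 acts on Xcr1 of cross-presenting dendritic cells, Ccl1 acts on Ccr8, Ccl9 acts on Ccr1, and Cxcl10 is an interferon-induced ligand of Cxcr3. T cell receptor signals switch several of these genes on through NFAT, AP-1 and NF-kB factors, whereas Cxcl10 is best known for its response to interferon.

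The promoter sequences of 4 of the genes are shown to set the letters at the start beside the peaks described below: Ccl9 and Ccl1, with large transcript changes and no peak of open chromatin at the start, and Ccl3 and Cxcl10, whose starts lie in peaks. Each is the 250 bases before the annotated start, 5′ to 3′ on the strand of the gene, from RefSeq on GRCm38.p6, and all 4 genes lie on the minus strand. Capitals mark matches to kappa B, ISRE, AP-1 or TATA letters.
Ccl9 (chr11:83578637-83578886): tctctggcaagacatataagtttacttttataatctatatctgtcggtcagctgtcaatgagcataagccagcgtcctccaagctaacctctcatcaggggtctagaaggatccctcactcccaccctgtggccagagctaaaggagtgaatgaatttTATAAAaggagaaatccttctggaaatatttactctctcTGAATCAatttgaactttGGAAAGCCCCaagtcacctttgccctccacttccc
Ccl1 (chr11:82179813-82180062): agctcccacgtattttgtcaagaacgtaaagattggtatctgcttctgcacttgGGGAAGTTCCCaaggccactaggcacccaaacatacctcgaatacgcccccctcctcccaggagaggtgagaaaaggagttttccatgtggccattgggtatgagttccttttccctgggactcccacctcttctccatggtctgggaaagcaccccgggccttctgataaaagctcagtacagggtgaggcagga
Ccl3 (chr11:83649379-83649628): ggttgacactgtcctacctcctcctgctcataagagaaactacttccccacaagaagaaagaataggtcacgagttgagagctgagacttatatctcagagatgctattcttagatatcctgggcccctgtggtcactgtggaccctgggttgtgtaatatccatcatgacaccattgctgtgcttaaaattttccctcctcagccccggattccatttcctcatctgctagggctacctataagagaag
Cxcl10 (chr5:92348890-92349139): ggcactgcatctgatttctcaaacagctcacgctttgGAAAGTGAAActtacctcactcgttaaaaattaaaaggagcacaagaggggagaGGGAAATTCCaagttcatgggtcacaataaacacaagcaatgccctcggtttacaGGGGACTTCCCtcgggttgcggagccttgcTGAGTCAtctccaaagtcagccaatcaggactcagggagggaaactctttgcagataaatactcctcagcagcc
In the Ccl9 window a TATA match began 92 bases before the start, an AP-1 match (TGAATCA) 53 bases before it and a kappa B match (GGAAAGCCCC) 35 bases before it. Ccl1 held a pair of overlapping kappa B matches (GGGAAGTTCC and GGAAGTTCCC), which began 196 and 195 bases before the start. Cxcl10 held an ISRE match (GAAAGTGAAA) at 213 bases, kappa B matches at 159, 104 and 103 bases and an AP-1 match (TGAGTCA) at 74 bases before the start. Ccl3 and Xcl1 held none of these letters and matched only the short NFAT core, at 59 and 34 bases in Ccl3 and at 100 bases in Xcl1. The other promoters also matched that core, at 116, 86 and 51 bases in Ccl1, 71 and 35 in Ccl9, and 214, 158 and 35 in Cxcl10. The letters searched were GGGNNNNNCC for kappa B, GAAANNGAAA for ISRE, TGANTCA for AP-1, GGAAA for the NFAT core and TGACGTCA for CRE, all on both strands, and TATAAA on the strand of the gene. Kappa B and NFAT core letters can overlap, as they do at 35 bases in Ccl9. Among 32851 RefSeq promoter windows of the same length, 45.8% held the kappa B letters, 2.98% ISRE, 6.75% AP-1, 55.6% the NFAT core, 1.55% CRE and 7.59% TATA. These matches describe the letters only, and 5 of the 7 genes were in the promoter table (Ccl4 and Ccl5 were not).

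RNA libraries held 26.04 to 39.64 M (mega) estimated counts and ATAC libraries 25.31 to 37.07 M counts in 75802 peaks. Levels are counts per M counts (CPM) after TMM scaling and are compared only within a gene, since they are not divided by transcript length. A gene or peak was called where edgeR's quasi-likelihood test, fitted across all genes or peaks and adjusted by Benjamini and Hochberg, gave a p under 0.05. The deposited RNA counts carry traces of an adjustment for replicate number, so RNA spreads within groups may be understated and RNA p-values too low; all values of the 7 genes were whole numbers. In these bulk samples fewer cells of a type and less RNA per cell cannot be told apart. Summed markers of CD8 T cells (10 genes, Cd8a, Cd8b1 and Cd3e among them) stood at 2767 to 2836 CPM with NaCl and at 2035 to 2103 CPM with lactate+Oxyrase. The list includes genes of all T cells, such as Cd3e. With lactate+Oxyrase 8 of the 10 were lower and 0 higher than with NaCl (all genes: 24.3% lower, 26.5% higher). Against lactate 7 were lower and 1 higher (all genes: 23.6% lower, 26.1% higher). Markers of monocytes, macrophages and dendritic cells summed to 2.46 to 3.10 CPM with NaCl or lactate, 3.41 to 4.58 CPM with pyruvate and 6.00 to 7.50 CPM with lactate+Oxyrase; 15 of the 16 had group means under 1 CPM in each group. C1qa was at 0 in every library, and Siglech in all pyruvate, lactate and lactate+Oxyrase libraries. Lyz2 was at 0 throughout only with lactate+Oxyrase. Fcgr1 and Clec9a were at 0 in all NaCl, pyruvate and lactate libraries but not in all lactate+Oxyrase libraries. The same held for Adgre1 in pyruvate and lactate libraries, and for Ms4a7 in NaCl and pyruvate libraries. Of the 3 that passed the filter, Cd68 and Itgax were higher with lactate+Oxyrase than with lactate and Mpeg1 was lower (adjusted p = 4.41e-07, 5.54e-05 and 0.013). Itgax, at means of 0.769 and 0.0708 CPM, passed the filter only through lactate+Oxyrase libraries. Cd68 gave most of that sum, at a mean of 4.97 CPM with lactate+Oxyrase against 1.52 CPM with lactate. Granulocyte and mast cell markers did not exceed 0.253 CPM in sum. The part of other cells in the chemokine results was not tested.

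Of the 7 chemokines, 6 had group means that were low with NaCl and lactate, higher with pyruvate, and as high or higher with lactate+Oxyrase. The order of NaCl and lactate differed among them. Ccl3, a ligand of Ccr1, measured 442, 422 and 376 CPM in the NaCl libraries and 432, 429 and 447 CPM in the lactate libraries. Its levels were 711, 968 and 939.6 CPM with pyruvate and 1321, 1269 and 1384 CPM with lactate+Oxyrase. The NaCl and lactate libraries overlapped, and the pyruvate and lactate+Oxyrase libraries each formed a separate, higher group. Ccl3 was 2.11-fold higher with pyruvate than with NaCl (log2 fold change 1.08 ± 0.08 SE, adjusted p = 3.28e-07) and 3.04-fold higher with lactate+Oxyrase than with lactate (1.60 ± 0.09, adjusted p = 9.18e-11).

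Ccl4, a close relative of Ccl3, measured 217, 212 and 169.7 CPM with NaCl and 195, 175 and 176 CPM with lactate. Pyruvate libraries gave 286, 336 and 352 CPM, and lactate+Oxyrase libraries gave 299.9, 310.1 and 381 CPM. The upper pair of groups overlapped each other and lay wholly above the lower pair. Ccl4 was 1.63-fold higher with pyruvate than with NaCl (log2 fold change 0.70 ± 0.10, adjusted p = 9.88e-05) and 1.82-fold higher with lactate+Oxyrase than with lactate (0.86 ± 0.10, adjusted p = 9.47e-07). The RefSeq span of Ccl4 (chr11:83648624-83664683) runs over that of Ccl3 (chr11:83647843-83649378), the kit does not mark strand, and whether the gene models used for counting overlapped is not given in the sources used here.

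Ccl5, a late product of T cell activation, was scarce, with 41 to 498 counts per library. It measured 2.83, 2.16 and 2.39 CPM with NaCl, 1.82, 1.99 and 1.04 CPM with lactate, 4.10, 5.69 and 6.24 CPM with pyruvate, and 16.8, 9.56 and 15.1 CPM with lactate+Oxyrase. No pair of groups overlapped. Ccl5 was 2.16-fold higher with pyruvate than with NaCl (log2 fold change 1.11 ± 0.24, adjusted p = 0.00405) and 8.63-fold higher with lactate+Oxyrase than with lactate (3.11 ± 0.23, adjusted p = 7.94e-09). The lower lactate level did not pass the test against NaCl (-0.62 ± 0.27, adjusted p = 0.176).

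Ccl9, a ligand of Ccr1 better known from myeloid cells, had the largest fold of the 7 with lactate+Oxyrase. NaCl libraries gave 6.65, 6.97 and 5.44 CPM and lactate libraries 4.52, 5.75 and 5.07 CPM. Pyruvate libraries gave 17.3, 26.9 and 25.5 CPM, and lactate+Oxyrase libraries 94.2, 82.5 and 101 CPM. All lactate+Oxyrase libraries were above all pyruvate libraries, and these were above the NaCl and lactate libraries, which overlapped. The fold was 3.63 for pyruvate against NaCl (log2 1.86 ± 0.15, adjusted p = 3.98e-07) and 18.0 for lactate+Oxyrase against lactate (log2 4.17 ± 0.14, 95% interval of the fold 14.6 to 22.2, adjusted p = 5.19e-13). The summed myeloid markers, most of them Cd68, were also higher with lactate+Oxyrase (above). Of the same list Itgax was higher too, Mpeg1 was lower, and Lyz2 was at 0 with lactate+Oxyrase. How these markers bear on Ccl9 was not tested. Ccl6, a close relative of Ccl9, stayed under the filter with at most 0.148 CPM in any library.

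Ccl1, the ligand of Ccr8, measured 9.70, 7.73 and 5.71 CPM with NaCl and 4.10, 3.90 and 4.62 CPM with lactate. It measured 15.3, 23.4 and 21.4 CPM with pyruvate and 28.6, 42.4 and 43.8 CPM with lactate+Oxyrase. All 4 groups were apart, with lactate lowest. Ccl1 was 2.57-fold higher with pyruvate than with NaCl (log2 fold change 1.36 ± 0.19, adjusted p = 1e-04) and 9.09-fold higher with lactate+Oxyrase than with lactate (3.18 ± 0.19, adjusted p = 5.46e-10). It was lower with lactate than with NaCl (-0.89 ± 0.22, adjusted p = 0.0232), a call lost without NaCl 1, NaCl 2, lactate 1 or lactate 2 (adjusted p 0.0531 to 0.121).

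Xcl1, the attractant of Xcr1-bearing dendritic cells, measured 626, 589 and 543 CPM with NaCl and 542, 639.9 and 603 CPM with lactate. Pyruvate libraries gave 799, 946 and 989 CPM and lactate+Oxyrase libraries 1016, 1049 and 1178 CPM. NaCl and lactate overlapped, and the other 2 groups were separate and higher. Xcl1 was 1.55-fold higher with pyruvate than with NaCl (log2 fold change 0.64 ± 0.08, adjusted p = 2.71e-05) and 1.82-fold higher with lactate+Oxyrase than with lactate (0.86 ± 0.08, adjusted p = 6.73e-08).

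Cxcl10, the interferon-induced ligand of Cxcr3, followed another course and was scarce, with 36 to 74 counts per library. It measured 2.23, 2.07 and 2.62 CPM with NaCl, 1.92, 1.65 and 1.98 CPM with pyruvate, 1.68, 1.45 and 0.913 CPM with lactate, and 2.74, 1.93 and 1.64 CPM with lactate+Oxyrase. NaCl lay above pyruvate and lactate, and lactate+Oxyrase overlapped every other group. Cxcl10 was lower with lactate than with NaCl (log2 fold change -0.79 ± 0.23, adjusted p = 0.0473) and higher with lactate+Oxyrase than with lactate (0.65 ± 0.24, adjusted p = 0.0296). The first call was lost in a fit of the 2 groups alone (adjusted p = 0.0588), with the replicate number as a block (0.0765) and without any 1 of 9 libraries (NaCl 1, 2 or 3, pyruvate 1, 2 or 3, lactate 2 or 3, or lactate+Oxyrase 2; 0.0556 to 0.179). The second was lost in a fit of the 2 groups alone (adjusted p = 0.0598), without lactate 3 (0.16) and without lactate+Oxyrase 1 (0.172). Pyruvate against NaCl did not pass the test (-0.32 ± 0.22, adjusted p = 0.371). The related ligands Cxcl9 and Cxcl11 stayed under the filter, with at most 0.127 and 0.0347 CPM.

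**Figure D1:**
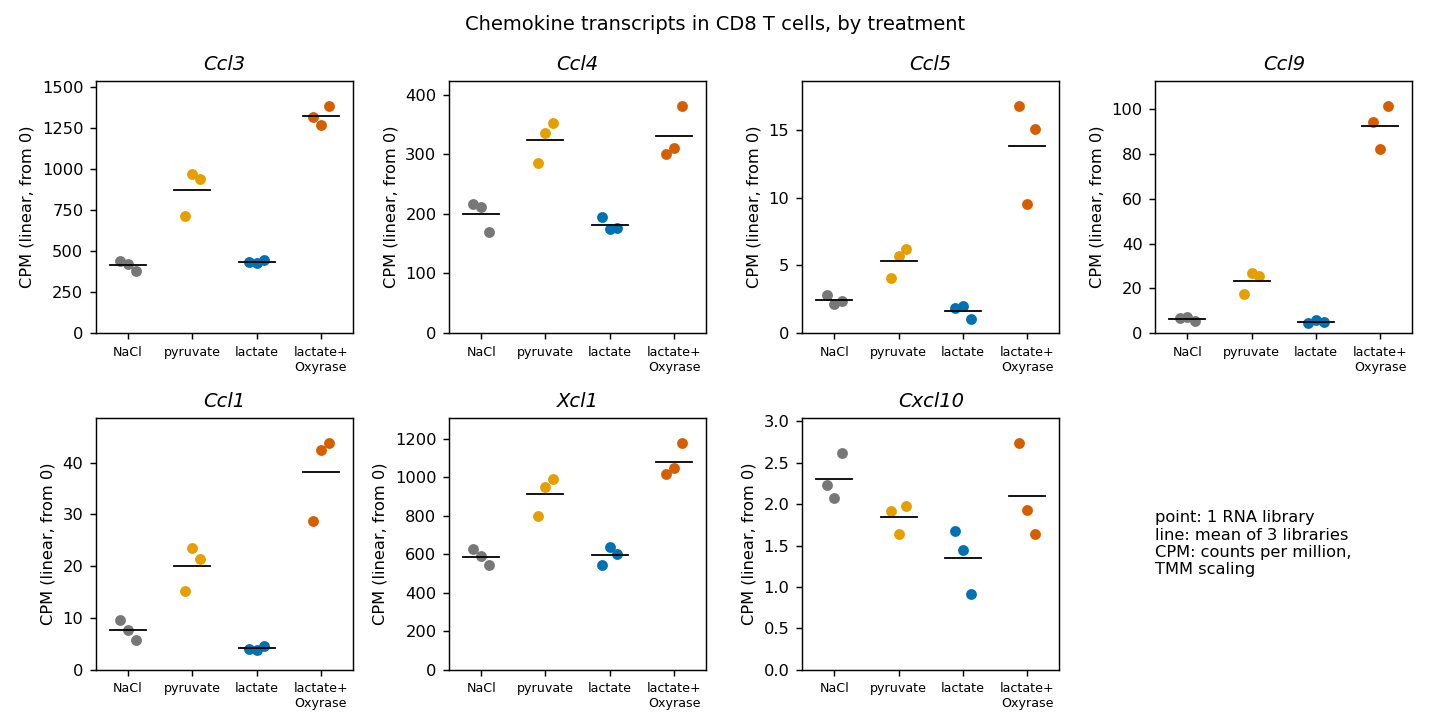
Transcript level of the 7 chemokines in each RNA library (y axis, CPM on a linear scale from 0, 1 panel per gene) by treatment (x axis); points are libraries and lines are means of 3 libraries. Ccl9 reached 82.5 to 101 CPM with lactate+Oxyrase against 4.52 to 5.75 CPM with lactate, and Cxcl10 showed no such step.

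Pyruvate was set against NaCl, which adds sodium at the same dose without the organic acid. With pyruvate 6 of the 7 chemokines were higher and 0 lower, with a median log2 fold change of 1.08 over the 7. Among all 14749 genes 9.40% were higher and 6.28% lower, and the median was 0.00. Cxcl10 was the gene that did not pass. Pyruvate 1 was the lowest pyruvate library for all 6 genes that rose. None of the 6 calls was lost when any 1 library was left out.

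Lactate was set against the same control. With lactate 0 of the 7 chemokines were higher and 2, Ccl1 and Cxcl10, were lower, against 3.61% of all genes higher and 4.12% lower. For Ccl3 the 95% interval of the fold ran from 0.933 to 1.19, and for Xcl1 from 0.907 to 1.14, so larger differences of these 2 genes lie outside the 95% interval. The intervals were wider for Ccl4 (0.791 to 1.05), Ccl9 (0.618 to 1.05) and Ccl5 (0.434 to 0.969).

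Pyruvate and lactate, which lactate dehydrogenase interconverts, were compared at the same dose of 20 mM and over the same day. They differ in structure by the ketone of pyruvate in place of the hydroxyl group of lactate. With pyruvate 6 chemokines were higher than with lactate and 0 lower, against 13.0% and 10.9% of all genes. The folds were 4.75 for Ccl1 (adjusted p = 4.86e-07), 4.51 for Ccl9 (4.12e-08), 3.33 for Ccl5 (7.89e-05), 2.00 for Ccl3 (2.74e-07), 1.79 for Ccl4 (8.56e-06) and 1.53 for Xcl1 (2.12e-05). Cxcl10 did not pass (adjusted p = 0.163), with a 95% interval of the fold from 0.982 to 1.95.

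Oxyrase added to lactate gave 7 of 7 chemokines higher and 0 lower, in a comparison in which 26.1% of all genes were higher and 23.6% lower. The median log2 fold change over the 7 was 1.60, and over all genes it was 0.00. Folds ranged from 1.57 for Cxcl10 and 1.82 for Xcl1 and Ccl4 to 8.63 for Ccl5, 9.09 for Ccl1 and 18.0 for Ccl9. Against NaCl, which adds both lactate and Oxyrase to the contrast, 6 were higher and 0 lower (all genes: 26.5% higher, 24.3% lower). There the log2 fold changes were 3.86 ± 0.14 for Ccl9, 2.48 ± 0.22 for Ccl5, 2.30 ± 0.18 for Ccl1, 1.68 ± 0.09 for Ccl3, 0.88 ± 0.08 for Xcl1 and 0.73 ± 0.10 for Ccl4. The largest adjusted p among these 6 was 6.65e-06. Cxcl10 was at -0.14 ± 0.22 (adjusted p = 0.641).

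The upper groups were ordered by a contrast of lactate+Oxyrase with pyruvate, added after the other 5 comparisons had been seen. In it 5 chemokines were higher and 0 lower, against 22.9% and 21.2% of all genes. Ccl9 was 3.99-fold higher (adjusted p = 6.4e-10), Ccl5 2.59-fold (2.93e-05), Ccl1 1.91-fold (0.000152), Ccl3 1.52-fold (1.5e-05) and Xcl1 1.19-fold (0.0144). The Xcl1 call was lost without pyruvate 1 (adjusted p = 0.089) or lactate+Oxyrase 3 (0.0869). Ccl4 did not differ beyond its spread, with a fold of 1.02 and a 95% interval from 0.886 to 1.17. The groups compared differ in 2 respects, pyruvate against lactate and Oxyrase against none, which cannot be told apart here. All these comparisons share libraries, so they are not independent of each other.

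**Figure D2:**
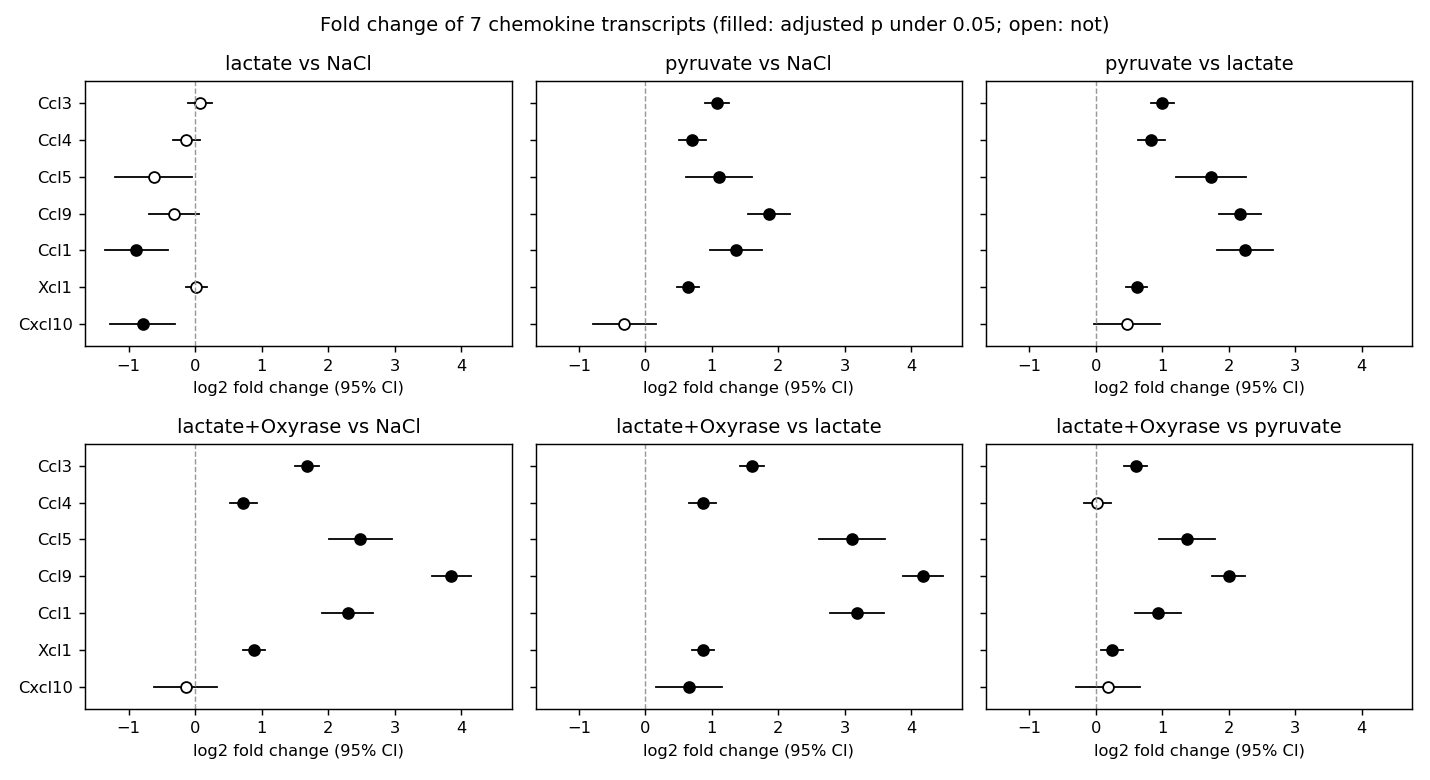
Log2 fold change (x axis) of each chemokine (y axis) in 6 comparisons, 1 panel each; points are estimates of the edgeR fit, bars are 95% intervals, and filled points have an adjusted p under 0.05. Ccl9 stands farthest from 0 with lactate+Oxyrase (4.17 against lactate), and the lactate panel against NaCl shows 2 filled points, Ccl1 and Cxcl10, both below 0.

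Over the 12 RNA libraries, which share their groups, the log2 levels of the 6 chemokines other than Cxcl10 had pairwise Pearson correlations of 0.87 to 0.98. Cxcl10 correlated with them at 0.13 to 0.46. Ccl3 and Xcl1 were at 0.98, and Ccl3 and Ccl9 at 0.98. Among 8617 genes of at least 3 in mean log2 CPM, the nearest to Ccl9 were Il3 (r = 0.997), which encodes interleukin-3, Crtam (0.995), an adhesion receptor of activated T cells, and Slc15a3 (0.995), a peptide transporter. Il3 went from a mean of 5.79 CPM with lactate to 98.5 CPM with lactate+Oxyrase. The nearest to Ccl3 were Cd36 (0.99), a fatty acid receptor, Pdcd1lg2 (0.99), a ligand of PD-1, and Gpd2 (0.99), a mitochondrial dehydrogenase. The nearest to Ccl5 were the transcription factor genes Runx2 (0.99) and Rora (0.98), and Fhl2 (0.98). Ccl1 was nearest to Trim66, Penk and Idi2 (all 0.98), Ccl4 to Igf2r, Rnf141 and Pi4ka (all 0.97), and Xcl1 to Pdcd1lg2, Ccl3 and Ptprk (all 0.98). For Cxcl10 the nearest were Rnf114 (0.84), Ppp4r1 (0.80) and Gsdmd (0.80). These values describe likeness over groups and carry no test.

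The receptors of these ligands were measured in the same libraries: 14 of 24 listed chemokine receptor genes passed the filter. With lactate+Oxyrase 8 were higher and 3 lower than with lactate, with pyruvate 3 were higher and 0 lower than with NaCl, and with lactate 1 was higher and 1 lower than with NaCl. Of all genes 26.1% were higher and 23.6% lower in the first comparison, 9.40% and 6.28% in the second, and 3.61% and 4.12% in the third. The 8 include Ccr1 and Xcr1, which passed the filter only through the groups in which they were high, so their calls follow in part from the filter. Ccr1, the receptor of Ccl3 and Ccl9, had 0 counts in all NaCl and all lactate libraries and 105 counts over the lactate+Oxyrase libraries, at 1.52, 0.825 and 1.21 CPM. Against a floor of 3 counts over the group it was at least 41.1-fold higher than with lactate and at least 36.2-fold higher than with NaCl. Among pyruvate libraries, 1 held Ccr1, at 0.329 CPM. Ccr2 was higher with lactate+Oxyrase than with lactate (1.99 ± 0.25, adjusted p = 4.69e-06), at means of 1.89 and 0.477 CPM. Xcr1, the receptor of Xcl1, had means of 0.333 CPM with lactate+Oxyrase and 0.0877 CPM with lactate, where 3 counts in 1 library are 0.0757 to 0.115 CPM. Ccr8, the receptor of Ccl1, measured 2.63, 3.00 and 2.77 CPM with lactate and 0.815, 0.825 and 1.09 CPM with lactate+Oxyrase. It was lower with lactate+Oxyrase (-1.61 ± 0.20, adjusted p = 4.41e-06) and higher with lactate than with NaCl (0.64 ± 0.19, adjusted p = 0.0456), the reverse of Ccl1 in both comparisons.

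Cxcr3 was named after its values were seen, as the partner of Cxcl10. It stood at 6.55, 6.90 and 6.95 CPM with lactate and 3.26, 2.82 and 3.25 CPM with lactate+Oxyrase, and was lower with Oxyrase (-1.13 ± 0.11, adjusted p = 1.86e-07).

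Other chemokine ligands were mostly silent. Of 31 listed, 5 passed the filter: Ccl20, Ccl22, Ccl25, Ccl27a and Cxcl16. Of these 3 were higher and 0 lower with lactate+Oxyrase than with lactate, 1 higher with pyruvate than with NaCl, and 1 lower with lactate than with NaCl, against 26.1%, 9.40% and 4.12% of all genes called in those directions. Ccl20, the ligand of Ccr6, measured 8.70, 6.88 and 6.63 CPM with NaCl, 8.72, 9.85 and 9.64 CPM with pyruvate, 5.04, 4.58 and 4.79 CPM with lactate and 20.0, 17.9 and 21.8 CPM with lactate+Oxyrase. Like Ccl1 it was lower with lactate than with NaCl (-0.63 ± 0.11, adjusted p = 0.00366) and higher with Oxyrase than without (2.05 ± 0.11, adjusted p = 7.13e-11). Ccl22, a ligand of Ccr4, rose with Oxyrase by 1.72 ± 0.34 and Cxcl16, the ligand of Cxcr6, by 1.32 ± 0.31 on the log2 scale (adjusted p = 3.88e-04 and 0.00164).

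**Figure D3:**
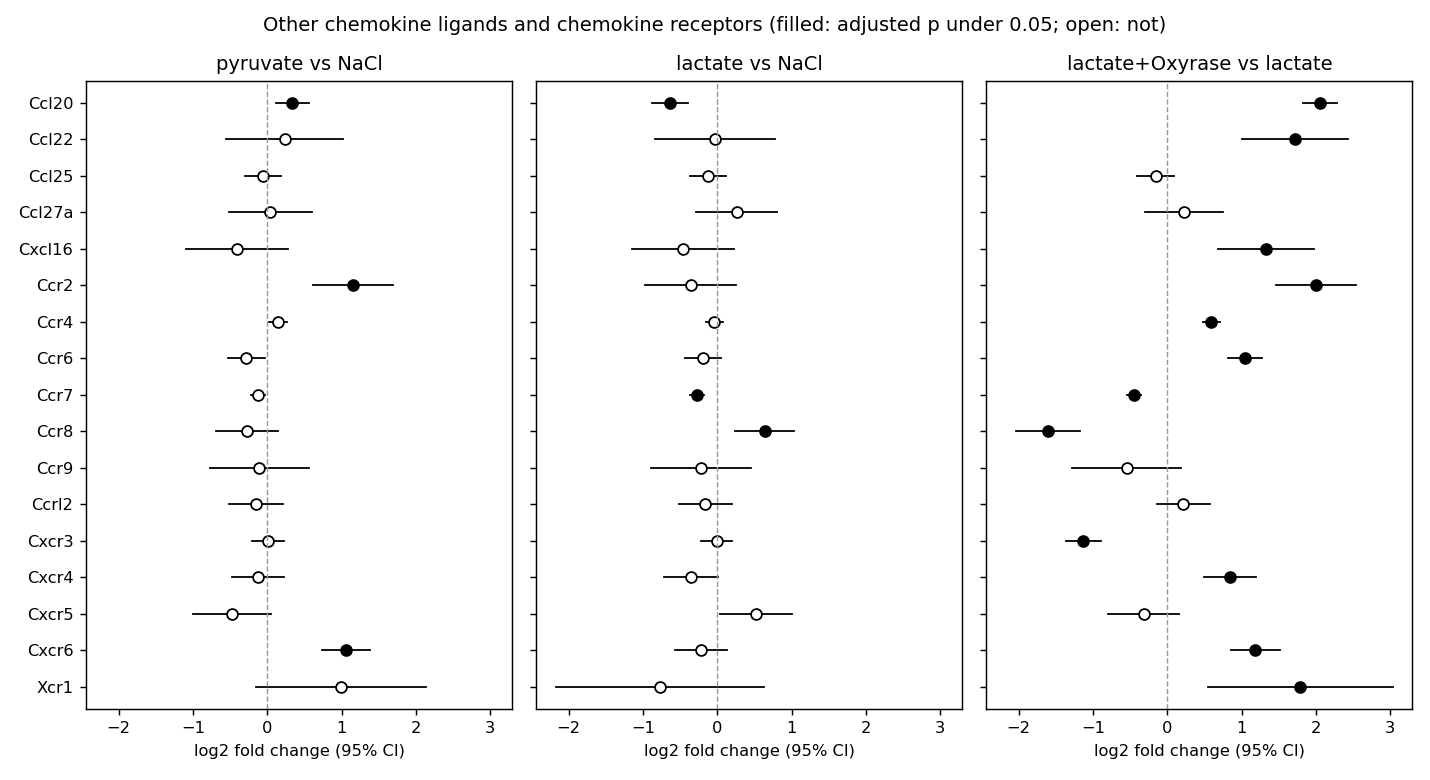
Log2 fold change (x axis) of the tested other ligands and receptors (y axis) in 3 comparisons; points are estimates of the edgeR fit, bars are 95% intervals and filled points have an adjusted p under 0.05. Ccr1, with 0 counts in NaCl and lactate, is left out, and 1 other receptor is not shown; Ccr8 and Cxcr3 lie below 0 with lactate+Oxyrase (-1.61 and -1.13) while Ccl20 and Ccr2 lie above it (2.05 and 1.99).

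Genes of the pathways that act on chemokine promoters moved in both directions. Of 16 NF-kB factors and feedback inhibitors, 9 were higher and 4 lower with lactate+Oxyrase than with lactate (median log2 fold change 0.17), 4 higher and 5 lower with pyruvate than with NaCl, and 0 higher and 5 lower with lactate than with NaCl. The shares of all genes higher and lower were 26.1% and 23.6% with Oxyrase, 9.40% and 6.28% with pyruvate, and 3.61% and 4.12% with lactate. The 4 NF-kB genes lower with Oxyrase are thus near the share of all genes lower there. With Oxyrase, Nfkb2 and Relb, subunits of the noncanonical pathway, rose by 1.02 ± 0.04 and 0.83 ± 0.05, and the inhibitor gene Nfkbid fell by 1.28 (SE 0.07). With lactate Relb fell by 0.34 (SE 0.05) against NaCl (adjusted p = 8.53e-04). Of 20 NFAT, AP-1 and EGR factors, 11 were higher and 5 lower with Oxyrase (median 0.13), 6 higher and 2 lower with pyruvate, and 0 higher and 1 lower with lactate, beside the same shares of all genes; the 5 lower with Oxyrase are near the 23.6% of all genes. Fosl1, Egr1 and Egr2 rose by 1.03 ± 0.11, 0.97 ± 0.05 and 0.87 ± 0.08 with Oxyrase, and by 0.56 ± 0.11, 0.40 ± 0.05 and 0.57 ± 0.08 with pyruvate.

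Of 11 regulators of Ccl5, Xcl1 or the effector state, 5 were higher and 3 lower with lactate+Oxyrase than with lactate (median log2 fold change 0.29), 5 higher and 0 lower with pyruvate than with NaCl, and 1 higher and 1 lower with lactate than with NaCl. Of all genes 26.1% were higher and 23.6% lower, 9.40% and 6.28%, and 3.61% and 4.12% in these comparisons, so the 3 lower with Oxyrase are near the share over all genes. Prdm1, which encodes Blimp-1, rose from a mean of 1.38 to 6.15 CPM with Oxyrase (2.16 ± 0.19, adjusted p = 5.85e-08) and from 1.32 to 3.69 CPM with pyruvate (1.47 ± 0.20, adjusted p = 1e-04). Of 12 tested genes of granule storage and export, 11 were higher and 1 lower with Oxyrase (median 0.40), 5 higher and 1 lower with pyruvate, and 2 higher and 1 lower with lactate, beside the same shares of all genes. The 11 include Gzma, named after its values were seen, which passed the filter only through the lactate+Oxyrase libraries (means of 0.803 and 0.0429 CPM with and without Oxyrase). Prf1, perforin, rose by 1.52 ± 0.08 and 1.17 ± 0.08 in the first pair of comparisons.

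Peaks near the 7 genes had smaller log2 fold changes than the transcripts with lactate+Oxyrase against lactate. A set of 4 of the genes sits together on chromosome 11 in the order Ccl5, Ccl9, Ccl3 and Ccl4, from chr11:83525778 to 83664683; Ccl1 lies on the same chromosome at chr11:82176666-82179812, Xcl1 at chr1:164931644-164935522 and Cxcl10 at chr5:92346638-92348889 (RefSeq, GRCm38.p6). Within 10 kb of a gene there were 21 peaks: 5 at Ccl5, 3 each at Ccl1, Ccl4, Xcl1 and Cxcl10, and 2 each at Ccl3 and Ccl9. Peak coordinates are given as in the deposited table, on mm10. With lactate+Oxyrase 4 of the 21 were higher and 3 lower than with lactate, where 15.6% of all peaks were higher and 12.8% lower. Both counts are near the shares over all peaks. The log2 fold changes lay between -0.33 and 0.57, while those of the transcripts ran from 0.65 to 4.17. Folds of RNA and of ATAC counts are not on the same scale.

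Peaks covered the starts of Ccl3, Xcl1 and Cxcl10, and none covered those of Ccl1 and Ccl9. The Ccl3 start peak (chr11:83648939-83649915) measured 39.1, 35.3 and 32.5 CPM with NaCl, 36.5, 35.4 and 32.4 CPM with pyruvate, 33.9, 30.0 and 33.3 CPM with lactate and 29.2, 26.5 and 27.0 CPM with lactate+Oxyrase. The lactate+Oxyrase libraries were lowest and overlapped no other group, while Ccl3 transcripts were highest there. The peak was lower than with NaCl (log2 fold change -0.37 ± 0.09, adjusted p = 0.000915) and than with lactate (-0.23 ± 0.09, adjusted p = 0.0467). The call against lactate was lost after correction for a trend on mean accessibility (-0.15, adjusted p = 0.138), in a fit of the 2 groups alone (0.0533) and without any 1 of 7 libraries (NaCl 2, pyruvate 1 or 2, lactate 1 or 3, or lactate+Oxyrase 2 or 3; 0.0531 to 0.138). The call against NaCl was kept under all alternatives, though at a smaller log2 fold change with the trend correction (-0.19, adjusted p = 0.0399). The Xcl1 start peak (chr1:164935387-164936244) measured 30.7, 30.9 and 32.9 CPM with lactate and 30.5, 33.0 and 30.0 CPM with lactate+Oxyrase (-0.02 ± 0.09, 95% interval -0.19 to 0.16). At Cxcl10 the start peak (chr5:92348659-92349166) measured 27.1, 26.1 and 24.0 CPM with lactate and 31.8, 34.1 and 29.3 CPM with pyruvate, and was higher with pyruvate (0.30 ± 0.10, adjusted p = 0.0331).

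Peaks in or near the spans of Ccl4 and Ccl5 moved in both directions with lactate+Oxyrase against lactate. At Ccl5 a peak inside the gene span (chr11:83528043-83528289) measured 5.10, 5.40 and 6.07 CPM with lactate and 8.88, 7.51 and 8.05 CPM with lactate+Oxyrase, and was higher (log2 fold change 0.56 ± 0.14, adjusted p = 0.00179). A peak over one end of the span (chr11:83530077-83530736) measured 14.8, 13.0 and 14.2 CPM with lactate, 16.1, 18.4 and 15.8 CPM with NaCl, and 12.8, 11.4 and 10.2 CPM with lactate+Oxyrase. It was lower with lactate+Oxyrase than with NaCl (-0.54 ± 0.11, adjusted p = 4.82e-05) and than with lactate (-0.28 ± 0.11, adjusted p = 0.0414); the second call was lost in a fit of the 2 groups alone (0.0618) and without lactate 1, lactate 3, lactate+Oxyrase 2 or lactate+Oxyrase 3 (0.0886 to 0.199).

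At Ccl4 a peak inside the span (chr11:83662120-83662748) measured 26.4, 25.3 and 26.1 CPM with lactate and 20.7, 20.6 and 20.8 CPM with lactate+Oxyrase, and was lower (-0.33 ± 0.09, adjusted p = 0.00375). A peak 1174 bp outside the span (chr11:83665857-83666150) measured 4.92, 5.36 and 5.84 CPM with lactate and 7.82, 7.76 and 8.32 CPM with lactate+Oxyrase, and was higher (0.57 ± 0.13, adjusted p = 0.00103). These 2 peaks and the inner Ccl5 peak kept their calls against lactate under all alternatives. The remaining calls against lactate were higher: a peak 9876 bp upstream of Xcl1 (0.32 ± 0.10, adjusted p = 0.0118; lost without lactate 2, 0.13, or lactate+Oxyrase 2, 0.0816) and a peak 2260 bp upstream of Ccl9.

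The Ccl9 peak (chr11:83580896-83581179) measured 5.04, 3.56 and 4.23 CPM with lactate, 6.38, 6.86 and 4.73 CPM with lactate+Oxyrase, 6.61, 7.24 and 5.01 CPM with pyruvate and 6.83, 6.73 and 4.29 CPM with NaCl. All groups overlapped. It was higher with lactate+Oxyrase than with lactate (0.48 ± 0.17, adjusted p = 0.0282), a call lost with DESeq2 (0.059), with the trend correction (0.0593) and without lactate 2, lactate 3, lactate+Oxyrase 1 or lactate+Oxyrase 2 (0.0737 to 0.151). The Ccl9 transcript was 14.5-fold higher with lactate+Oxyrase than with NaCl, a comparison in which no peak near Ccl9 was called. At Ccl1 edgeR's fit of all 12 libraries called none of the 3 peaks in any of the 6 comparisons. In a fit of the 2 groups alone the peak at chr11:82183110-82183830 was lower with pyruvate than with lactate (-0.30, adjusted p = 0.0286; 0.111 in the fit of all libraries).

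**Figure D4:**
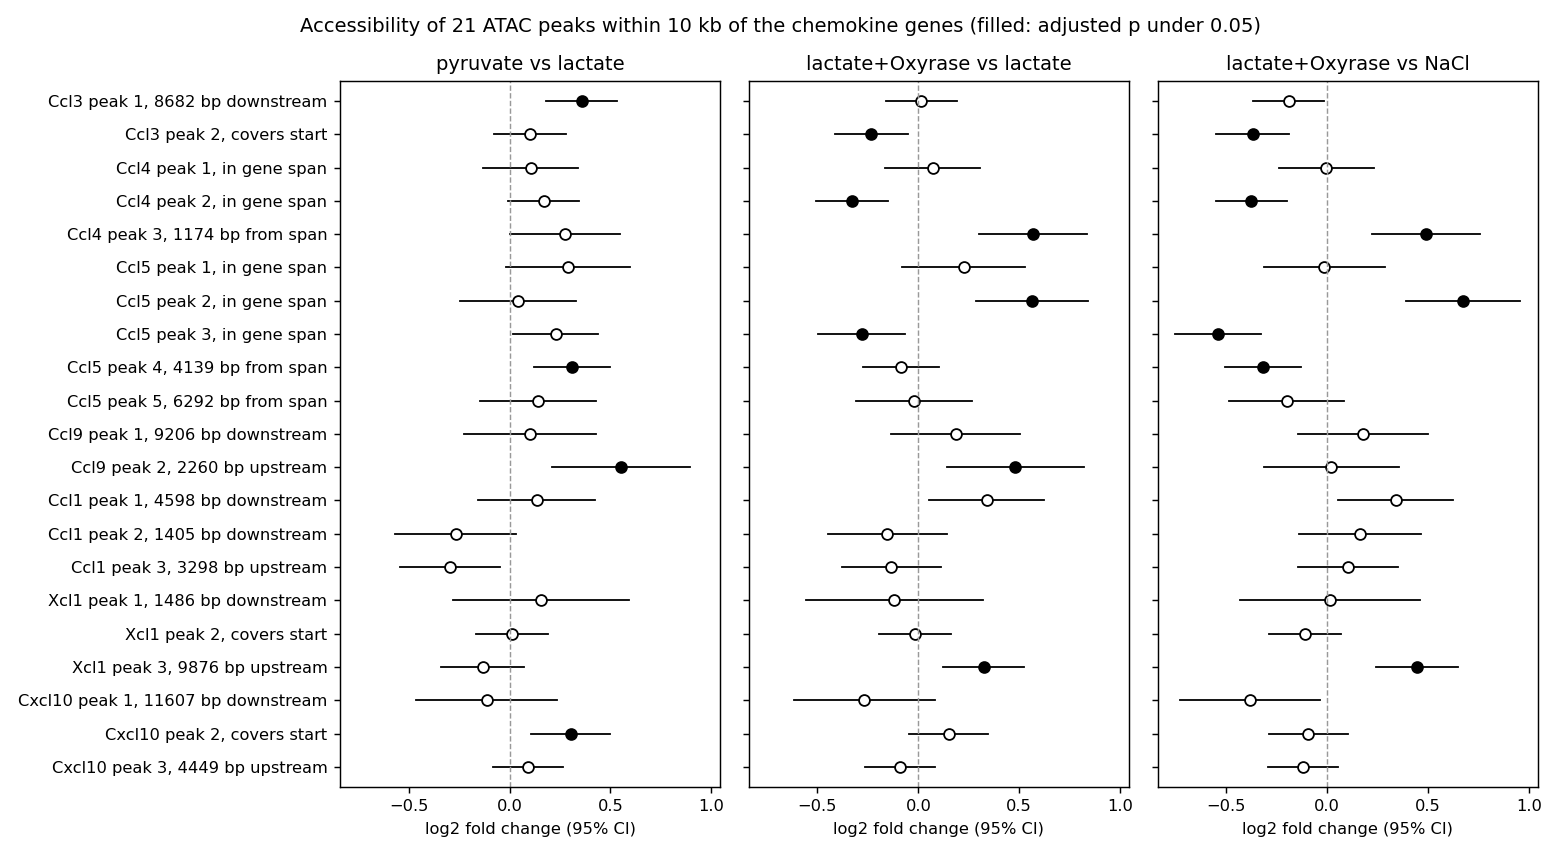
Log2 fold change (x axis) of the 21 peaks within 10 kb of the genes (y axis, by gene and by distance in bp from the annotated start, or from the gene span for Ccl4 and Ccl5) in 3 comparisons; points are estimates, bars are 95% intervals and filled points have an adjusted p under 0.05. With lactate+Oxyrase against lactate 4 filled points lie above 0 and 3 below it, all between -0.33 and 0.57.

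**Figure D5:**
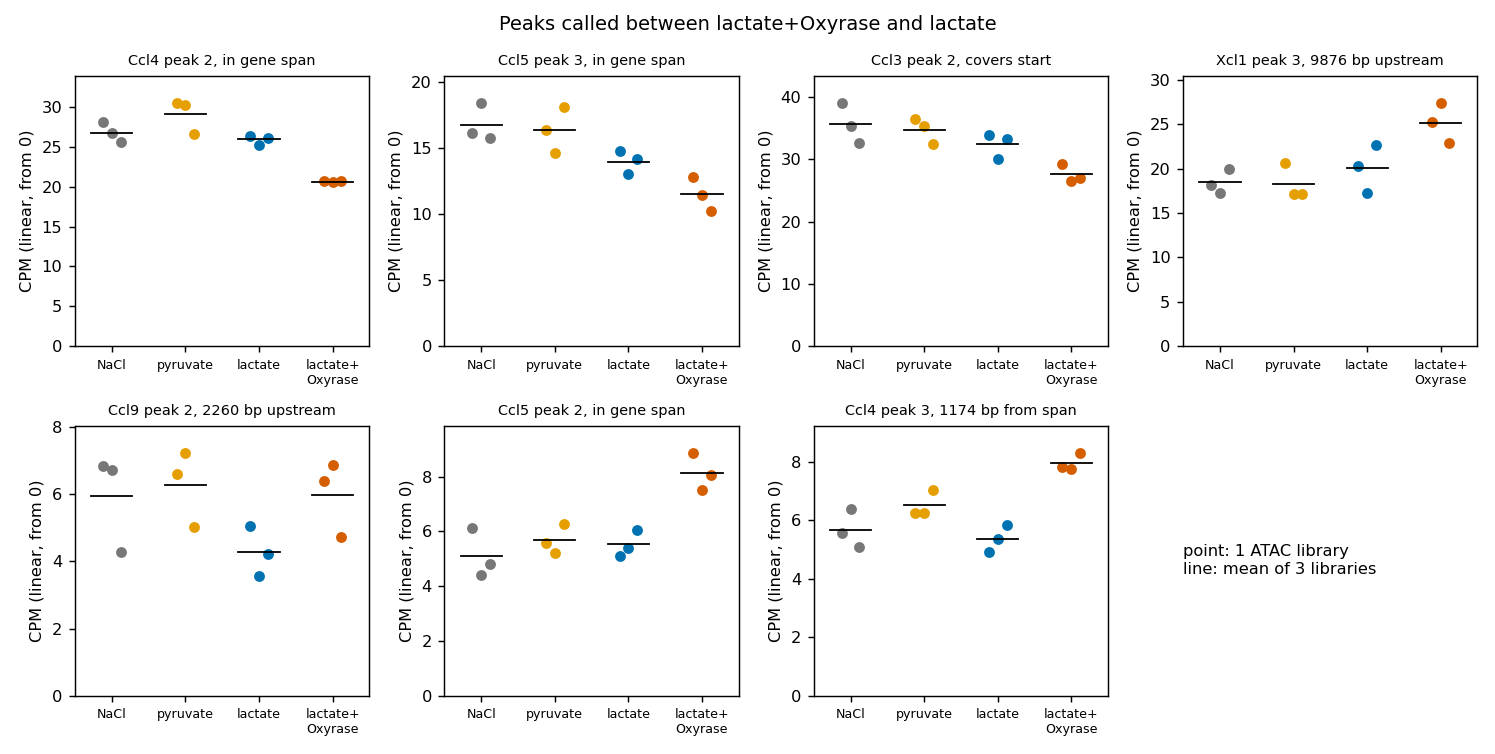
Accessibility (y axis, CPM on a linear scale from 0) of the 7 peaks called between lactate+Oxyrase and lactate, by treatment (x axis); points are ATAC libraries and lines are means of 3. The Ccl4 peak in the gene span falls to 20.6 to 20.8 CPM with lactate+Oxyrase, and the Ccl9 peak shows overlapping groups.

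In the other comparisons the peaks near the chemokines gave these counts. With pyruvate against NaCl 0 of the 21 peaks were called, and 0% of all peaks were higher and 0% lower by edgeR, although 4060 peaks had an unadjusted p under 0.05. With lactate against NaCl 0 of the 21 were called by edgeR and 1 by DESeq2, against 1.13% of all peaks higher and 5.28% lower; the 1 was the peak 8682 bp downstream of the Ccl3 start. Of all peaks 15327 had an unadjusted p under 0.05 there. With pyruvate against lactate 4 were higher and 0 lower, against 6.84% and 4.78% of all peaks. These were the Cxcl10 start peak, the Ccl9 peak (0.55 ± 0.17, adjusted p = 0.0267), the Ccl3 peak 8682 bp downstream (0.36 ± 0.09, adjusted p = 0.00474) and a peak 4139 bp outside the Ccl5 span (0.31 ± 0.09, adjusted p = 0.024). The Cxcl10, Ccl9 and Ccl5 peaks each lost the call without pyruvate 1, pyruvate 2, lactate 2 or lactate 3 (adjusted p 0.0713 to 0.182), and the Ccl5 peak also without pyruvate 3 (0.0526). With lactate+Oxyrase 3 were higher and 4 lower than with NaCl (21.5% and 19.2% of all peaks), and 2 higher and 5 lower than with pyruvate (21.6% and 17.9%). The peak 4139 bp outside the Ccl5 span was among the lower ones against NaCl (-0.32 ± 0.09, adjusted p = 0.00562), a call lost with the trend correction (-0.13, adjusted p = 0.184) and without NaCl 1 (0.0565).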

How the data were processed

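RNA was measured by poly(A) RNA-seq and open chromatin by ATAC-seq in 12 libraries each. The deposited RNA values are expected counts (estimated counts) per gene that the authors made with RSEM 1.2.12 and Bowtie2 2.2.0 on mm10, per the submitters' processing notes. The deposited ATAC values are counts of reads in peaks; per the file headers, the authors had dropped duplicate and mitochondrial reads first. Tools named in the submitters' notes for this are BWA, Trimmomatic, MACS2, Picard, edgeR 3.20.9 and bedtools. Of the RNA values above 0, 99.24% were whole within 1e-09. Values above 1 that were not whole occurred in 460 genes, and 448 of those had 0 in every library of 1 replicate number; the kind of adjustment is not given in the sources used here.

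Estimated counts were rounded and low features removed with filterByExpr (no peak was). With TMM factors, edgeR 4.0.16 in R 4.3.3 fitted each assay's 12 libraries together in 1 quasi-likelihood model (residual degrees of freedom 8, no replicate term). Biological variation between replicates came to 5.05% (RNA) and 9.70% (ATAC), and 3 counts corresponded to 0.0757 to 0.115 CPM per RNA library. The SE is that of the log2 fold change, and the prior count of log2 CPM was 2. A peak was assigned to the nearest gene span within 10 kb. Promoter letters were searched in Python 3.11.15, and the fits were tested on simulated data.

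The members, gene lists and tests were chosen with earlier results of these data known. Named were the 7 genes, at most 4 genes of largest change among those called in a list and comparison, the 3 genes most like each member by Pearson correlation, and each called or start peak; exceptions are marked, and the values of some genes are not reported here. Marker lists covered CD8 T, CD4 T and regulatory T, NK, B, myeloid, granulocyte, stromal and erythroid cells. Alternatives were DESeq2 1.42.0, RLE factors, only the groups compared, a replicate term, no filter, other windows, a loess trend (span 0.3) and each library left out.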

Additional observations from a re-analysis of the deposited data

How the results depend on the processing

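In pyruvate against NaCl, pyruvate against lactate, lactate+Oxyrase against lactate and lactate+Oxyrase against NaCl, the 6 chemokines other than Cxcl10 stayed called under all alternatives. No chemokine or near peak called with all libraries changed sign under any alternative. Values that were not called did cross 0, such as Cxcl10 for lactate+Oxyrase against NaCl (-0.37 to 0.02) and Ccl4 for lactate+Oxyrase against pyruvate (-0.09 to 0.09). The Ccl3 peak 8682 bp downstream, not called for lactate+Oxyrase against NaCl with all libraries (-0.19, adjusted p = 0.0783), was called lower with DESeq2 (0.0157), with the replicate block (0.039) and without NaCl 3 (0.0233) or lactate 1 (0.0446), and stood at 0.07 with the trend correction (0.347). The number of chemokines called for lactate against NaCl (2) was 1 in a fit of the 2 groups alone, 1 with the replicate block and 4 without a filter (Ccl5 and Ccl9 joined, adjusted p 0.0118 and 0.0367). It ranged from 0 to 2 with 1 library left out, and was 0 without NaCl 1, NaCl 2 or lactate 2 and 1 without NaCl 3, pyruvate 1, 2 or 3, lactate 1 or 3, or lactate+Oxyrase 2. The labels tie no replicate number to a shared animal or day. In RNA a check for pairing says nothing, since the counts appear adjusted for replicate number (same-numbered libraries correlated at -0.210 to -0.0794 after group means were removed). In ATAC they correlated at -0.151 to 0.173, over 0.1 in 6 of 18 pairs, so pairing was not established. With the replicate block all peaks called for lactate against NaCl went from 4857 to 6775, all genes called for lactate against NaCl went from 1140 to 671, and all peaks called for pyruvate against NaCl from 0 to 1. With 1 library left out, all genes called ranged from 475 to 1322 for lactate against NaCl (lowest without NaCl 2; NaCl 1 550, lactate 2 533, lactate 3 693) and from 1287 to 2483 for pyruvate against NaCl (without pyruvate 2, 1287; without NaCl 2, 1532). All peaks called ranged from 684 to 11317 for lactate against NaCl (4857 with all libraries; NaCl 2 lowest, NaCl 3 highest, NaCl 1 1262, lactate 2 2279, lactate 3 1147) and from 3597 to 11151 for pyruvate against lactate (8804; lactate 3 lowest, pyruvate 1 5284, pyruvate 2 4445, lactate 2 4961). Peaks near the chemokines ranged from 0 to 4 for lactate against NaCl (4 without NaCl 3, 1 without lactate 1), from 3 to 7 for lactate+Oxyrase against lactate (4 without lactate 3, 3 without lactate+Oxyrase 2) and from 1 to 4 for pyruvate against lactate (1 without pyruvate 1, pyruvate 2, lactate 2 or lactate 3). In that last comparison the adjusted p reached 0.182 at the Cxcl10 start peak, 0.157 at the Ccl9 peak and 0.164 at the Ccl5 peak. With DESeq2, 1 near peak was called for lactate against NaCl. A 25 kb window held 39 peaks. It gave 2 calls for lactate against NaCl, 1 higher and 1 lower (all peaks: 1.13% and 5.28%). Lactate+Oxyrase against lactate gave 14, 8 higher and 6 lower (15.6% and 12.8%). Pyruvate against lactate gave 7, 4 higher and 3 lower (6.84% and 4.78%). Lactate+Oxyrase gave 14 against NaCl, 8 higher and 6 lower (21.5% and 19.2%). Against pyruvate it gave 12, 6 higher and 6 lower (21.6% and 17.9%). A 2.5 kb window held 13 peaks, beside the same shares of all peaks. There 2 were called for pyruvate against lactate, 2 higher and 0 lower. For lactate+Oxyrase against pyruvate 4 were called, 1 higher and 3 lower. The window changes which peaks are counted; the cause of the other changes was not tested. The trend correction ended the Cxcl10 start peak call for pyruvate against lactate (adjusted p = 0.0504) and the Ccl3 calls for lactate+Oxyrase against pyruvate (0.177 at the downstream peak, 0.067 at the start peak). Depth limits the precision for Cxcl10 (36 to 74 counts per library) and Ccl5 (41 to 498).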

Other observations

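Marker lists not described above gave these sums per library. B cell markers summed to 202 to 212 CPM with NaCl and 68.4 to 79.2 CPM with lactate+Oxyrase, nearly all of it Ighm, which fell from a mean of 189 to 69.1 CPM between lactate and lactate+Oxyrase. Markers of CD4 and regulatory T cells summed to 384 to 441 CPM with NaCl and 200.3 to 205 CPM with lactate+Oxyrase. With lactate the sum was 412 to 473 CPM, most of it Ctla4, whose mean fell from 421 CPM there to 157 CPM with lactate+Oxyrase. Of these 5 genes 1 was higher and 2 lower with lactate+Oxyrase than with lactate, against 26.1% and 23.6% of all genes. NK cell markers summed to 276 to 297 CPM with lactate and 374 to 426 CPM with lactate+Oxyrase. The sum was led by Nkg7, which activated CD8 T cells also express. Of 8 listed NK genes 4 passed the filter. Of these 3 were higher and 1 lower with lactate+Oxyrase than with lactate, against 26.1% and 23.6% of all genes. Ncr1 was at 0 in both groups, Klrb1c at 0 with lactate and Klra8 at 0 with lactate+Oxyrase. Stromal and endothelial markers summed to 25.6 to 28.3 CPM with lactate and 14.1 to 17.8 CPM with lactate+Oxyrase, and erythroid and platelet markers to at most 1.82 CPM in any library. How these sums bear on the chemokine levels was not tested.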
